A study of Mus musculus with 12 samples.

Results

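The genes of the sciatic nerve of *Mtmr2* KO mice were compared with those of WT control mice, by counting reads on every gene in 8 libraries of 12 in the series, chosen by their labels alone. These were the 4 control libraries (genotype Mtmr2 wt/wt, replicates 4497 to 4500) and the 4 labelled Mtmr2 null (genotype Mtmr2 -/-, replicates 4501 to 4504), each from 1 nerve of 1 mouse at postnatal day 30, with 3 males and 1 female per group. The labels give both groups no treatment, while the paper calls its untreated *Mtmr2* KO group vehicle treated where it is compared with niacin; the 4 libraries of niacin-treated *Mtmr2* KO mice were not part of the comparison. The mice were on the 129/SvPas background, and the deletion is in every cell of the mouse and is not limited to Schwann cells. Of 43432 genes in the count table, 33050 had at least 1 count in these 8 libraries, and the 16896 that were not too low by edgeR's filterByExpr were tested.

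MTMR2 is a phosphatase that removes a phosphate from phosphoinositides of endosomal membranes, lipids that mark membranes for traffic, and its loss causes the recessive demyelinating neuropathy Charcot-Marie-Tooth type 4B1. In the nerve the Schwann cell wraps the axon in myelin, and without MTMR2 this myelin is made in excess and folds outwards. A whole sciatic nerve also holds fibroblasts, perineurial cells, vessels with endothelium and smooth muscle, macrophages, axons without their cell bodies, and the fat of the epineurium, its outer sheath. The question put to these 8 libraries was which genes of this tissue differ when MTMR2 is missing, at an age when the mutant myelin is already abnormal. Levels are given as CPM (counts scaled with TMM factors to a common library total), in the order 4497, 4498, 4499 and 4500 for WT control and 4501, 4502, 4503 and 4504 for the libraries labelled *Mtmr2* KO.

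The libraries held nerve. *Pmp22* and *Mbp*, which encode proteins of compact myelin, were among the 3 genes with the highest mean CPM, and the 15 skeletal muscle fibre markers that were tested summed to little, from 70.3 to 126 CPM in WT control and from 87.1 to 129.9 CPM in the libraries labelled *Mtmr2* KO. Counts per library summed to 20763951 to 33191106. *Xist*, the RNA that coats the silenced X of females, was at 544 CPM in WT control 4498 and 683 CPM in *Mtmr2* KO 4502 and below 6 CPM in the other 6 libraries, while *Ddx3y* and *Kdm5d* of the Y chromosome were low in those 2 libraries alone (*Ddx3y* at 1.54 and 1.92 CPM against 73.8 to 117 CPM), which matches 1 female per group.

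*Mtmr2* itself (chromosome 9, 13748410 to 13806481, + strand of GRCm38) was at 157, 129.99, 126 and 134 CPM in WT control and 69.5, 84.2, 141 and 69.3 CPM in the libraries labelled *Mtmr2* KO. The library labelled *Mtmr2* KO 4503 therefore lay inside the range of WT control, while the other 3 lay below it. Means were 137 ± 14.0 CPM (SD, n = 4) and 91.1 ± 34.2 CPM (SD, n = 4), with a log2 fold change of −0.59 (SE 0.22), and the difference passed neither edgeR's quasi-likelihood test (adjusted *P* = 0.306) nor DESeq2 (adjusted *P* = 0.175), but it passed limma-voom with sample quality weights (adjusted *P* = 0.0429). The two-sided exact permutation *P* was 0.114, where 4 against 4 cannot go below 0.0286. Without the library labelled *Mtmr2* KO 4503 the log2 fold change was −0.88 and DESeq2 called it (adjusted *P* = 2.53e-06), while edgeR did not (adjusted *P* = 0.0829). The sources used here do not give the deleted part of the gene, and reads on the rest of the gene can remain in a null mouse. Since the level in 4503 goes against its label, the overall counts, the lists where it matters and the calls that are lost without it are also given without it.

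Library 4502 stood apart too. It lay far from the other 7 on the first principal component of log2 CPM, which held 40.2% of the variance, and 4503 lay apart on the second, which held 27.3%. Mitochondrial transcripts were 6.997% of counts in 4502 and between 2.09% and 2.80% in the other libraries. Short transcripts were high in it: the fifth of genes with the shortest transcripts deviated from the WT control mean by a median of −0.04, 0.52, −0.01 and 0.18 (log2) in the 4 libraries labelled *Mtmr2* KO, and the fifth with the longest by 0.06, −0.21, 0.03 and −0.08. The libraries labelled *Mtmr2* KO were less alike than the WT control libraries. The SD of log2 CPM had a median over genes of 0.39 in the first group and 0.16 in the second, and 86.4% of genes had the larger SD in *Mtmr2* KO.

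**Figure D1:**
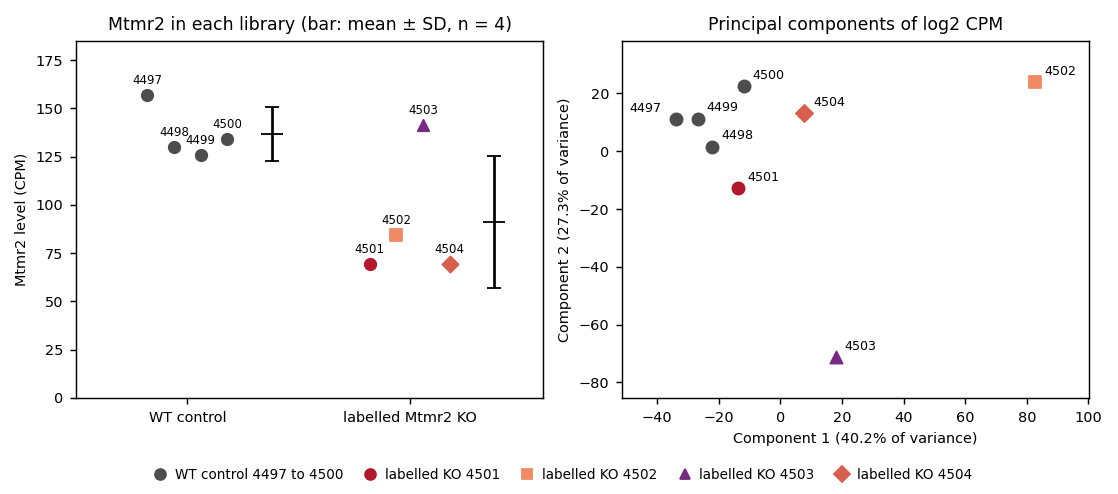
Left, the level of *Mtmr2* (CPM) in each of the 8 libraries, with the mean and SD of each group of 4 as bars; the library labelled *Mtmr2* KO 4503 sits among the WT control libraries. Right, each library on the first 2 principal components of log2 CPM; the 4 WT control libraries lie together, 4502 lies apart on component 1 and 4503 on component 2.

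Lower genes outnumbered higher ones among the differences that held across libraries. No gene passed edgeR's quasi-likelihood test at a Benjamini-Hochberg adjusted *P* under 0.05 (0 of 16896, with a smallest adjusted *P* of 0.0679), although 2411 genes (14.3%) had an unadjusted *P* under 0.05. DESeq2, the tool of the study, called 133 genes higher and 294 lower in *Mtmr2* KO, which is 0.754% and 1.67% of the 17649 genes it adjusted. Limma-voom with sample quality weights, which gives noisy libraries less weight, called 9 higher and 101 lower (0.0533% and 0.598% of 16896), and 97 of these 110 genes were also DESeq2 calls. For 673 genes (3.98%) all 4 libraries labelled *Mtmr2* KO lay above all 4 of WT control, and for 931 (5.51%) they lay below. DESeq2 called 113 genes higher (0.677%) and 327 lower (1.96%) without the library labelled *Mtmr2* KO 4503, 172 (0.997%) and 428 (2.48%) without 4502, and 94 (0.629%) and 412 (2.76%) without both. Each mouse gave 1 library, and a call below names the tool that made it, with Benjamini-Hochberg adjustment over all genes tested.

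The genes that DESeq2 called lower were low in each mouse of the group, with median deviations from the WT control mean of −0.79, −1.22, −1.17 and −0.96 (log2) in 4501, 4502, 4503 and 4504. The genes called higher leaned on 4502 and 4503, with medians of 0.62, 1.904, 1.84 and 0.51. These genes were chosen by this same contrast, so the medians only describe it. Lists of genes are described below by how many members DESeq2 called, against 0.722% higher and 1.73% lower of the 16896 genes tested by edgeR, and by their median log2 fold change, which over all tested genes was 0.03.

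**Figure D2:**
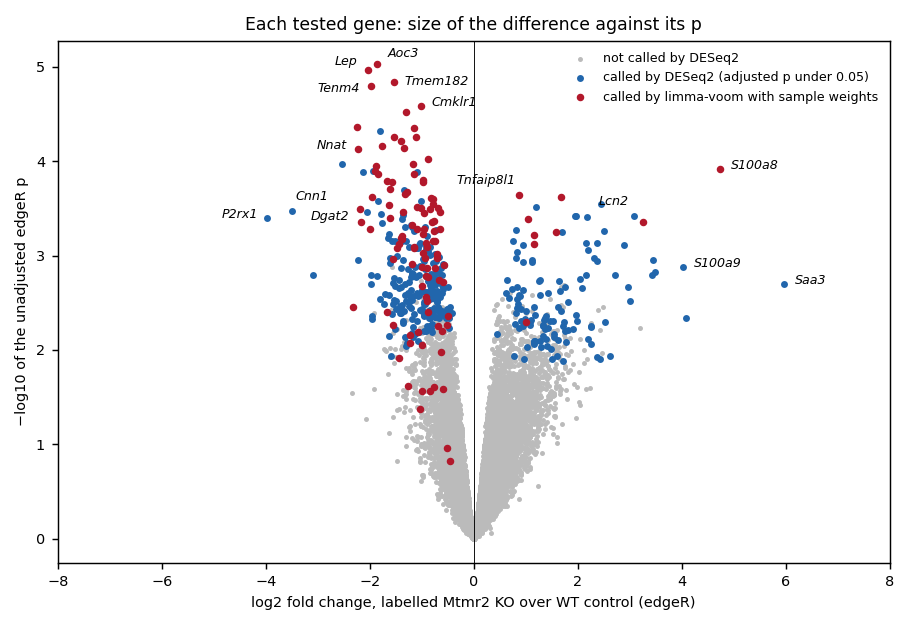
Each point is 1 of 16896 tested genes, with its log2 fold change (libraries labelled *Mtmr2* KO over WT control) on the x axis and −log10 of its unadjusted edgeR *P* on the y axis. Genes called by DESeq2 are blue, and those called by limma-voom with sample quality weights are red; lower genes such as *Aoc3*, *Lep* and *Tenm4* reach the smallest *P*, and the largest log2 fold changes belong to higher genes such as *S100a8* and *Saa3*.

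On the lower side, the 10 genes with the smallest edgeR *P* whose groups did not overlap were *Aoc3*, *Lep*, *Tmem182*, *Tenm4*, *Cmklr1*, *Mmd*, *Kcnj14*, *Pth1r*, *Olfr558* and *Synpo2*, with log2 fold changes from −2.24 to −1.02. *Aoc3*, which encodes a vascular amine oxidase of vessel wall and fat (chromosome 11, 101330605 to 101341938, + strand), was at 106, 131, 96.5 and 96.0 CPM in WT control and 43.5, 20.8, 30.4 and 23.0 CPM in the libraries labelled *Mtmr2* KO, on average 3.65 times lower (log2 fold change −1.87, SE 0.23, DESeq2 adjusted *P* = 1.15e-09). *Tenm4*, a teneurin of the cell surface (chromosome 7, 96171246 to 96911093, + strand), was at 13.1, 10.9, 12.2 and 12.1 CPM in WT control and 2.94, 4.19, 3.51 and 1.54 CPM in the libraries labelled *Mtmr2* KO (log2 fold change −1.98, SE 0.26, DESeq2 adjusted *P* = 1.85e-10). The WT control libraries were close together, and all 4 libraries labelled *Mtmr2* KO lay far below them, lowest in 4504. *Lep*, the fat cell hormone leptin, was at 38.6, 77.5, 39.2 and 52.7 CPM in WT control and 15.8, 12.6, 9.04 and 13.6 CPM in the libraries labelled *Mtmr2* KO (log2 fold change −2.03, SE 0.26, DESeq2 adjusted *P* = 1.89e-10). *Cmklr1*, the receptor of the adipokine chemerin, was tight in both groups, at 32.7, 34.2, 33.1 and 30.1 CPM in WT control and 18.6, 12.7, 16.4 and 16.2 CPM in the libraries labelled *Mtmr2* KO (log2 fold change −1.02, SE 0.14).

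*Mmd*, which encodes a membrane protein of the progestin and adiponectin receptor family, was at 138, 161, 110.5 and 117 CPM in WT control and 69.4, 54.9, 44.5 and 45.01 CPM in the libraries labelled *Mtmr2* KO (log2 fold change −1.30, SE 0.18, DESeq2 adjusted *P* = 6.69e-07). The potassium channel gene *Kcnj14* was at 2.52, 2.94, 2.53 and 2.27 CPM in WT control and 0.541, 0.936, 0.253 and 0.48 CPM in the libraries labelled *Mtmr2* KO (log2 fold change −2.24, SE 0.33, DESeq2 adjusted *P* = 5.96e-07), on 55 counts in the 4 libraries labelled *Mtmr2* KO against 292 in WT control. *Pth1r*, the receptor of parathyroid hormone, was lower by 2.21 times on average (log2 fold change −1.15, SE 0.17). The muscle gene *Tmem182* (−1.54, SE 0.20), the olfactory receptor gene *Olfr558* (−1.81, SE 0.27) and *Synpo2*, an actin-binding protein of smooth muscle (−1.52, SE 0.23), complete the 10. Limma-voom with sample quality weights called 9 of the 10, all except *Olfr558* (adjusted *P* = 0.0524). DESeq2 called all 10, also without 4503, without 4502 and without both.

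On the higher side, the 10 genes chosen in the same way were *S100a8*, *Tnfaip8l1*, *Ankrd37*, *Pglyrp1*, *Tecrl*, *Ifit1bl1*, *Mxi1*, *Cd300lf*, *Tekt5* and *Tsc22d3*. *S100a8*, one chain of the neutrophil protein calprotectin, was at 0.178, 0.144, 0.107 and 0.10 CPM in WT control and 5.72, 6.64, 1.61 and 0.576 CPM in the libraries labelled *Mtmr2* KO. These levels rest on 5, 4, 3 and 3 counts in WT control and 169, 149, 51 and 12 in the libraries labelled *Mtmr2* KO, and DESeq2 called the gene (adjusted *P* = 1.61e-08). *Tnfaip8l1*, of a family of proteins that carry phosphoinositides, was nearly constant in WT control and higher in every library labelled *Mtmr2* KO, at 42.0, 41.5, 43.6 and 40.6 CPM in WT control and 65.8, 91.6, 88.5 and 59.8 CPM in the libraries labelled *Mtmr2* KO (log2 fold change 0.87, SE 0.16, DESeq2 adjusted *P* = 0.00064). *Tsc22d3*, which encodes the glucocorticoid-induced leucine zipper GILZ, was at 214, 219.5, 219.8 and 207 CPM in WT control and 417, 576, 1184 and 397 CPM in the libraries labelled *Mtmr2* KO (log2 fold change 1.58, SE 0.32, DESeq2 adjusted *P* = 0.000279). It was the most abundant of the 10 and highest in 4503, and without that library its log2 fold change was 1.10 (DESeq2 adjusted *P* = 3.76e-08).

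*Pglyrp1*, a peptidoglycan recognition protein of innate immunity, was at 3.799, 4.13, 5.39 and 5.14 CPM in WT control and 10.1, 11.6, 13.5 and 7.01 CPM in the libraries labelled *Mtmr2* KO (log2 fold change 1.19, SE 0.22, DESeq2 adjusted *P* = 0.000553). *Mxi1*, a partner of MAX that opposes MYC, was at 67.0, 78.6, 78.3 and 67.9 CPM in WT control and 99.99, 135, 161 and 113 CPM in the libraries labelled *Mtmr2* KO (log2 fold change 0.80, SE 0.16, DESeq2 adjusted *P* = 0.00339). Both were above WT control in every library labelled *Mtmr2* KO, with the highest value in 4503. *Tecrl*, an endoplasmic reticulum protein of heart and muscle, was higher by 4.49 times on average, *Tekt5*, a tektin of cilia and sperm tails, by 3.25 times, and *Ankrd37*, which is known to be induced by hypoxia, by 3.19 times. The myeloid receptor gene *Cd300lf* was at 0.355, 0.502, 0.50 and 0.367 CPM in WT control and 1.73, 2.01, 5.09 and 0.912 CPM in the libraries labelled *Mtmr2* KO, with its highest value in 4503. *Ifit1bl1*, of the interferon-induced Ifit family whose similar members could share reads, was at 3.44, 3.23, 2.61 and 3.47 CPM in WT control and 7.27, 7.98, 5.03 and 5.90 CPM in the libraries labelled *Mtmr2* KO (log2 fold change 1.04, SE 0.20, DESeq2 adjusted *P* = 0.00184). DESeq2 called all 10, also without 4503 alone and without 4502 alone, and limma-voom with sample quality weights called 5. Without both libraries *Ankrd37* (DESeq2 adjusted *P* = 0.0592) and *Cd300lf* (DESeq2 adjusted *P* = 0.0552) were not called. In edgeR's quasi-likelihood test the adjusted *P* of the 20 genes ran from 0.0679 to 0.111.

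**Figure D3:**
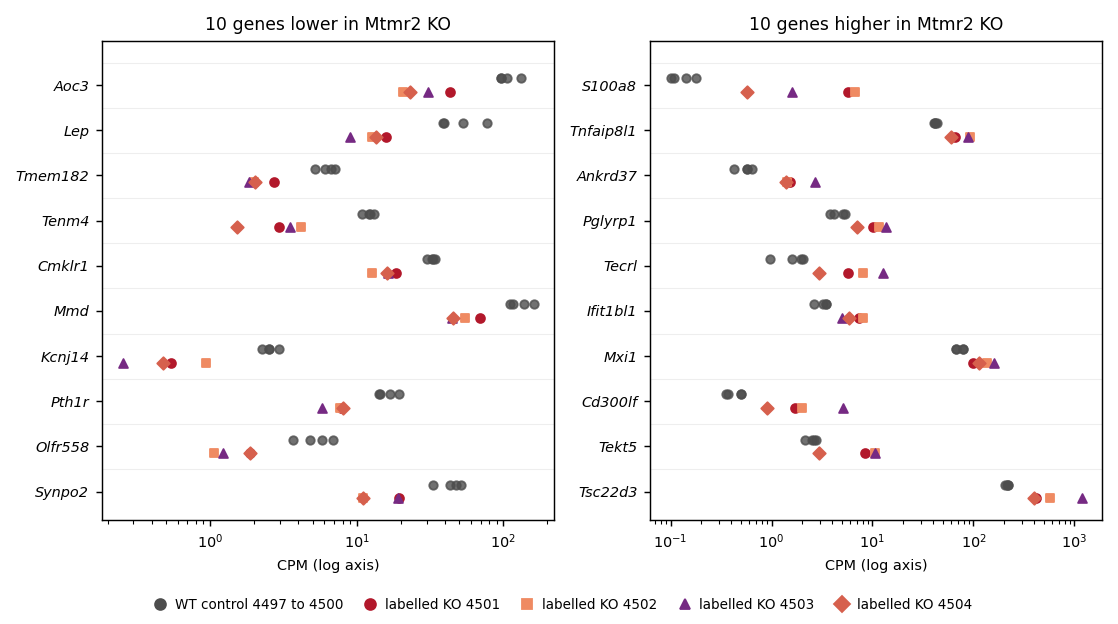
Level (CPM, log axis) of the 10 lower (left) and 10 higher (right) genes with the smallest edgeR *P* among those whose groups did not overlap; each point is 1 library. Grey circles are WT control and coloured symbols the 4 libraries labelled *Mtmr2* KO, which lie wholly to one side by the choice of the genes; *Tsc22d3* and *Cd300lf* are highest in 4503 (purple triangles).

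Genes that make and store triglyceride were lower in the nerves of *Mtmr2* KO mice. Of 22 genes for triglyceride synthesis, the lipid droplet and lipolysis, DESeq2 called 9 lower and 0 higher, limma-voom with sample quality weights called 6 lower, and for 10 the groups did not overlap, all lower. The median log2 fold change of the 22 was −0.87, with per-library medians of −0.70, −0.997, −0.69 and −2.21 in 4501 to 4504. *Dgat2*, the enzyme of the last step of triglyceride synthesis, was at 243, 354, 218 and 175 CPM in WT control and 111, 36.0, 29.4 and 40.7 CPM in the libraries labelled *Mtmr2* KO, on average 4.55 times lower (log2 fold change −2.19, SE 0.41, DESeq2 adjusted *P* = 1.05e-05). *Plin1*, which coats the lipid droplet and guards it from lipases, was at 224, 242, 155 and 163 CPM in WT control and 82.8, 48.7, 61.3 and 25.9 CPM in the libraries labelled *Mtmr2* KO (log2 fold change −1.84, SE 0.31, DESeq2 adjusted *P* = 3.02e-06). For both genes every library labelled *Mtmr2* KO lay below every WT control library, with 4501 nearest to WT control. *Lpl*, which releases fatty acids from lipoproteins, was at 727, 704, 594 and 649 CPM in WT control and 344, 515, 267 and 145 CPM in the libraries labelled *Mtmr2* KO (log2 fold change −1.07, SE 0.32, DESeq2 adjusted *P* = 0.0174). The other 6 called were *Pnpla3*, *Gpd1*, *Agpat2*, *Pck1*, *Aqp7* and *Lipe*, given here because they complete the count. DESeq2 called 12 of the 22 lower without the library labelled *Mtmr2* KO 4503 and 11 without 4502.

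The transcription factors of fat formation were lower with them. *Pparg*, the master regulator of the adipocyte, was at 34.7, 44.5, 38.8 and 43.8 CPM in WT control and 15.4, 34.8, 11.3 and 8.16 CPM in the libraries labelled *Mtmr2* KO (log2 fold change −1.22, SE 0.38, DESeq2 adjusted *P* = 0.0232), and only 4502 reached the WT control range. Without 4502 its log2 fold change was −1.80 (DESeq2 adjusted *P* = 3.47e-13), and without 4503 it was not called (DESeq2 adjusted *P* = 0.0601). *Cebpa*, its partner factor, chosen after its values were seen, was at 186, 244, 146 and 147 CPM in WT control and 102, 67.8, 74.0 and 53.3 CPM in the libraries labelled *Mtmr2* KO (log2 fold change −1.28, SE 0.23, DESeq2 adjusted *P* = 8.35e-05). *Srebf1*, which drives the genes of fatty acid synthesis, was at 189, 219.6, 163 and 150.04 CPM in WT control and 128, 75.2, 104 and 114 CPM in the libraries labelled *Mtmr2* KO (log2 fold change −0.78, SE 0.19, DESeq2 adjusted *P* = 0.0189), and *Mlxipl*, which encodes the glucose-sensing factor ChREBP, at 22.9, 33.4, 23.6 and 19.1 CPM in WT control and 14.5, 7.98, 9.74 and 2.88 CPM in the libraries labelled *Mtmr2* KO (log2 fold change −1.49, SE 0.39, DESeq2 adjusted *P* = 0.00619). Of 15 genes of fatty acid synthesis and desaturation, DESeq2 called 3 lower (*Srebf1*, *Mlxipl* and *Scd1*) and 0 higher, and the median log2 fold change was −0.81. For 4 of the 15 the groups did not overlap on the lower side and for 1 on the higher side. DESeq2 called 4 lower and 1 higher without 4503, and 2 lower and 1 higher without both 4502 and 4503. *Scd1*, the desaturase that makes oleate, was at 4131, 7226, 3597 and 3083 CPM in WT control and 2587, 768, 753 and 1349.7 CPM in the libraries labelled *Mtmr2* KO (log2 fold change −1.72, SE 0.45, DESeq2 adjusted *P* = 0.00184), and without 4502 it was no longer called (DESeq2 adjusted *P* = 0.102), nor was *Mlxipl* (DESeq2 adjusted *P* = 0.137).

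The 14 adipocyte markers were all tested, and 0 of 14 had a higher mean in *Mtmr2* KO, where 54.2% of all tested genes did. DESeq2 called 5 lower (*Lep*, *Pparg*, *Cebpa*, *Plin1* and *Lpl*), and the median log2 fold change was −0.96. The difference was uneven. The per-library medians were −0.79, 0.01, −1.47 and −2.16, and the summed level of the 14 ranged from 4774 to 6203 CPM in WT control and from 1298 to 8206 CPM in the libraries labelled *Mtmr2* KO. In 4502 the abundant marker *Car3* was above WT control, at 1803, 1813, 1389 and 1731 CPM in WT control and 1020.5, 2998, 396 and 325 CPM in the libraries labelled *Mtmr2* KO, and without 4502 the median of the list was −1.42 and DESeq2 called 10 of 14 lower. The triglyceride genes, which share *Plin1*, *Cidec* and *Lpl* with this list, were therefore low beside low fat cell markers in 3 of the 4 libraries labelled *Mtmr2* KO, and in whole nerve fewer cells of a type and less RNA per cell cannot be told apart. In 4502 the triglyceride median was low while the adipocyte median was at the WT control level. The 7 brown fat markers that were tested had 0 calls and a median of −0.29. The 23 genes of cholesterol synthesis, which myelin needs in bulk, had 0 calls and a median of −0.26, with per-library medians of 0.32, −0.92, −1.11 and 0.10: low in 4502 and 4503 and not low in 4501 and 4504.

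Some genes of the vessel wall and elastic matrix were lower as well. Of 15 markers of vascular smooth muscle and pericytes, DESeq2 called 5 lower (*Lmod1*, *Myh11*, *Mylk*, *Synpo2* and *Cnn1*), the groups did not overlap for 7, and the median log2 fold change was −0.77, with per-library medians of −0.70, −1.57, −0.57 and −0.95. The same number was called without 4503 and without 4502. The other direction was held by the 2 most abundant of the 15, which were not called: *Tagln*, transgelin of the contractile apparatus, was at 278, 397, 528 and 559 CPM in WT control and 315, 1171, 621 and 325 CPM in the libraries labelled *Mtmr2* KO (log2 fold change 0.46, SE 0.41, DESeq2 adjusted *P* = 0.671). *Smtn*, smoothelin, was at 430.5, 438, 378 and 354 CPM in WT control and 605, 265, 465 and 422 CPM in the libraries labelled *Mtmr2* KO (log2 fold change 0.13, SE 0.23, DESeq2 adjusted *P* = 0.881). Neither direction held throughout, since *Tagln* was −0.07 without 4502 and *Smtn* −0.066 without 4501. *Myh11*, the myosin heavy chain of smooth muscle, chosen after its values were seen, was at 109, 101, 192 and 219 CPM in WT control and 56.3, 21.3, 78.2 and 55.8 CPM in the libraries labelled *Mtmr2* KO (log2 fold change −1.55, SE 0.38, DESeq2 adjusted *P* = 0.00295). *Cnn1*, calponin of contractile smooth muscle, was at 3.94, 4.56, 23.9 and 30.7 CPM in WT control and 1.52, 1.03, 1.26 and 1.78 CPM in the libraries labelled *Mtmr2* KO (log2 fold change −3.50, SE 0.67, DESeq2 adjusted *P* = 0.000497). The libraries labelled *Mtmr2* KO were alike for *Cnn1* and the WT control libraries were not, with 4499 and 4500 well above 4497 and 4498, and limma-voom with sample quality weights did not call it (adjusted *P* = 0.418). *P2rx1*, an ATP-gated channel of smooth muscle and platelets, showed the same split of WT control, at 0.568, 2.05, 5.32 and 6.54 CPM in WT control and 0.203, 0.178, 0.0949 and 0.48 CPM in the libraries labelled *Mtmr2* KO, on 418 counts in WT control and 23 in *Mtmr2* KO (DESeq2 adjusted *P* = 1.74e-06, limma-voom adjusted *P* = 0.429).

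*Eln*, which encodes elastin, was at 478, 411, 585 and 485 CPM in WT control and 139.8, 93.9, 169.7 and 256 CPM in the libraries labelled *Mtmr2* KO, on average 2.97 times lower (log2 fold change −1.57, SE 0.27, DESeq2 adjusted *P* = 1.44e-05). The highest value among the libraries labelled *Mtmr2* KO, in 4504, was still well below the lowest of WT control. Of 18 elastic fibre and microfibril genes, DESeq2 called *Eln*, *Ltbp4* and *Loxl1* lower and 0 higher, and for 7 the groups did not overlap (median log2 fold change −0.52). *Lox*, lysyl oxidase, which crosslinks elastin and collagen and was the most abundant of the 18, had a higher mean that rested on 4503, at 852, 869, 889 and 675 CPM in WT control and 1008, 889.7, 2314 and 616 CPM in the libraries labelled *Mtmr2* KO (log2 fold change 0.56, 0.03 without 4503, DESeq2 adjusted *P* = 0.507). *Ltbp4*, a latent TGF-beta binding protein that helps assemble elastic fibres, was at 237, 293, 229 and 206 CPM in WT control and 142, 90.7, 132 and 178 CPM in the libraries labelled *Mtmr2* KO (log2 fold change −0.83, SE 0.20, DESeq2 adjusted *P* = 0.017). Of 43 collagen genes DESeq2 called 4 lower: *Col6a6*, *Col6a5*, *Col4a6* and *Col4a5*, chains of microfibrillar collagen and of basement membrane. *Col6a6* was at 18.7, 14.6, 19.5 and 23.7 CPM in WT control and 5.24, 2.85, 3.76 and 8.83 CPM in the libraries labelled *Mtmr2* KO (log2 fold change −1.89, SE 0.32, DESeq2 adjusted *P* = 3.74e-06) and *Col6a5* at 21.9, 20.02, 27.8 and 14.0 CPM in WT control and 12.8, 5.66, 4.62 and 8.83 CPM in the libraries labelled *Mtmr2* KO (log2 fold change −1.39, SE 0.32, DESeq2 adjusted *P* = 0.00309). The abundant fibrillar collagen gene *Col3a1* was at 8781, 5380.0, 7359 and 6839 CPM in WT control and 5455, 1922, 3271 and 5659 CPM in the libraries labelled *Mtmr2* KO (log2 fold change −0.80, SE 0.39), with its lowest value in 4502, and was not called (DESeq2 adjusted *P* = 0.176). The median of all 43 was −0.34, and −0.22 without 4502. It was lowest in 4502, with per-library medians of −0.05, −1.07, −0.11 and −0.30. Of the 43, 34 had a lower mean, and the groups did not overlap for 7 lower and 1 higher. The 15 basal lamina genes, laminins and their receptors, had 0 calls, a median of −0.31 and the same outlying library (−1.11 in 4502).

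Of 13 endothelial markers DESeq2 called 1 lower, *Flt4*, and the median was −0.46, with −1.78 in 4502 and 0.12 in 4503. All 13 had a lower mean, and the count rested on the libraries used: DESeq2 called 4 lower without 4503 (median −0.69), 2 without 4502 (median −0.29) and 5 without both. Of 16 markers of nerve fibroblasts 1 was called lower, *Ccdc80*, a secreted matrix protein, at 225, 232, 224 and 285 CPM in WT control and 95.3, 122.9, 59.6 and 105 CPM in the libraries labelled *Mtmr2* KO (log2 fold change −1.33, SE 0.21, DESeq2 adjusted *P* = 1.58e-06), while the median of the list was −0.18, and 0.016 without 4503. Among 9 perineurial genes *Moxd1* was called lower (log2 fold change −0.84, SE 0.20, DESeq2 adjusted *P* = 0.0124), and the median was −0.14. *Nnat*, an imprinted gene that encodes the small membrane protein neuronatin, was one of the most changed genes of the comparison, at 38.2, 41.2, 50.2 and 95.3 CPM in WT control and 12.6, 18.5, 7.68 and 9.26 CPM in the libraries labelled *Mtmr2* KO, on average 4.68 times lower (log2 fold change −2.23, SE 0.35, DESeq2 adjusted *P* = 4.41e-08). It was the only one of 14 imprinted growth genes that DESeq2 called, but for 4 of them the groups did not overlap, all lower, and the list was low in each library labelled *Mtmr2* KO (medians −0.23, −0.44, −0.37 and −0.31). The growth factor gene *Igf2* was one of these 4, at 182, 215, 151 and 148 CPM in WT control and 145, 128, 132 and 139 CPM in the libraries labelled *Mtmr2* KO (log2 fold change −0.36, SE 0.15, DESeq2 adjusted *P* = 0.249).

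Genes induced by glucocorticoids, the stress hormones of the adrenal gland, were higher. All 20 of a list of 20 had a higher mean in *Mtmr2* KO, against 54.2% of all tested genes, DESeq2 called 5 higher (*Lcn2*, *Pdk4*, *Mt2*, *Mt1* and *Tsc22d3*) and 0 lower, and for 5 the groups did not overlap. The median log2 fold change was 1.24, and 4503 carried most of it: the per-library medians were 0.34, 0.57, 2.51 and 0.38. Without the library labelled *Mtmr2* KO 4503 the median was 0.36 and DESeq2 called 4 of 20. *Fkbp5*, a chaperone of the glucocorticoid receptor and the usual marker of its activity, chosen after its values were seen, was at 47.9, 80.9, 48.9 and 37.5 CPM in WT control and 118, 70.7, 374 and 56.2 CPM in the libraries labelled *Mtmr2* KO and was not called (DESeq2 adjusted *P* = 0.236). *Pdk4*, a kinase that shuts pyruvate out of oxidation, likewise chosen, was at 47.7, 39.7, 46.1 and 39.5 CPM in WT control and 51.1, 77.2, 284 and 71.1 CPM in the libraries labelled *Mtmr2* KO (log2 fold change 1.48, SE 0.47, DESeq2 adjusted *P* = 0.0362), and without 4503 (log2 fold change 0.62, DESeq2 adjusted *P* = 0.0573) or without 4502 (DESeq2 adjusted *P* = 0.145) it was not called. *Ddit4*, an inhibitor of mTOR signalling, was at 84.2, 107, 97.7 and 98.2 CPM in WT control and 139, 78.9, 866 and 138 CPM in the libraries labelled *Mtmr2* KO (DESeq2 adjusted *P* = 0.286). In all 3 genes 4503 was by far the highest library, while 4501, 4502 and 4504 lay closer to WT control. For *Ddit4*, 4501 and 4504 were still above every WT control library. DESeq2 did not call *Ddit4* without 4503 (adjusted *P* = 0.62) but called it without both 4502 and 4503 (adjusted *P* = 0.00265).

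The metallothioneins, small proteins that bind zinc and copper, were higher in every library labelled *Mtmr2* KO. *Mt1* was at 204, 329, 207 and 208 CPM in WT control and 655, 1879, 1367 and 344 CPM in the libraries labelled *Mtmr2* KO, on average 4.48 times higher (log2 fold change 2.16, SE 0.46, DESeq2 adjusted *P* = 5.53e-05). *Mt2* was at 124, 236, 128 and 127 CPM in WT control and 439, 739, 1765 and 248 CPM in the libraries labelled *Mtmr2* KO (log2 fold change 2.37, SE 0.53, DESeq2 adjusted *P* = 0.0246). *Mt3* was at 327, 379, 353 and 368 CPM in WT control and 528, 986, 1068 and 524 CPM in the libraries labelled *Mtmr2* KO (log2 fold change 1.12, SE 0.25, DESeq2 adjusted *P* = 0.00212). The lowest library labelled *Mtmr2* KO was 4504 in all 3 genes, and it was still above the highest WT control library. WT control 4498 stood above the other 3 WT control libraries for *Mt1* and *Mt2*. DESeq2 called all 3 genes also without 4503 and without 4502, but without both it called only *Mt3* (adjusted *P* = 3.03e-05 against 0.119 for *Mt1* and 0.171 for *Mt2*). The 3 genes are neighbours on the + strand of chromosome 8 of GRCm38, *Mt3* from 94152607 to 94154146, *Mt2* from 94172664 to 94173568 and *Mt1* from 94179082 to 94180327. The 250 bases upstream of each RefSeq start (GRCm38.p6) are shown because all 3 genes were higher, although *Mt1* was highest in 4502 and *Mt2* and *Mt3* in 4503. For *Mt1* and *Mt2* the RefSeq start differs from the gene start given above, so the matches depend on the start used. Any part of this sequence in the difference was not tested. *Mt1* and *Mt2* are known to answer to zinc through metal response elements. Capitals mark the core of that element, TGCNCNC, on either strand.
*Mt3*, chr8:94152357-94152606, + strand: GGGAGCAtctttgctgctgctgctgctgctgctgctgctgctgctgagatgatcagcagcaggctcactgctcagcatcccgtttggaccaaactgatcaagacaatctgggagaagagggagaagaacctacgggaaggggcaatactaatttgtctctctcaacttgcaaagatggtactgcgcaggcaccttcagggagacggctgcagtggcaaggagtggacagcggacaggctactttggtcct
*Mt2*, chr8:94172368-94172617, + strand: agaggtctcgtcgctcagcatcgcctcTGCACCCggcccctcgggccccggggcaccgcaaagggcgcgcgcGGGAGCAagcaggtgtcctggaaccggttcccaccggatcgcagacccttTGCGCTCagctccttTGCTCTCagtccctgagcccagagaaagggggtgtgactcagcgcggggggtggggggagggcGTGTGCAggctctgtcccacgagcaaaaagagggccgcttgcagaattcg
*Mt1*, chr8:94178839-94179088, + strand: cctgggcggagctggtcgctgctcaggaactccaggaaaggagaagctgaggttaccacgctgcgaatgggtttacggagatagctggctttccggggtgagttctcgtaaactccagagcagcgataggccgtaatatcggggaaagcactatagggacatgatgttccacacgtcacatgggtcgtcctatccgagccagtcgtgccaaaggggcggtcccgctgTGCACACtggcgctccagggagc
The core was found 5 times upstream of *Mt2* and once each upstream of *Mt1* and *Mt3*, and 14590 of 32851 promoters of this length (44.4%) held it at least once, so a match of these few letters is common.

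The list of FoxO factors, proteins that Akt signalling restrains, and their catabolic targets held 16 genes. Their median was 0.42, with 0.10, 0.39, 0.66 and 0.16 per library. DESeq2 called 2 higher, *Pdk4* and *Sesn1*, and the groups did not overlap for 6 higher and 1 lower. Without 4503 DESeq2 called 1 of the 16, and without 4502 it called 3. *Sesn1*, a sestrin that restrains mTORC1, was at 184, 167, 188 and 173 CPM in WT control and 240.0, 344, 753 and 273 CPM in the libraries labelled *Mtmr2* KO (log2 fold change 1.18, SE 0.32, DESeq2 adjusted *P* = 0.0228). *Cdkn1b*, the cell cycle inhibitor p27, was at 362, 385, 367 and 326 CPM in WT control and 667, 424, 778 and 468 CPM in the libraries labelled *Mtmr2* KO (DESeq2 adjusted *P* = 0.0817, and 0.000869 without 4502). Of 26 genes of the neuregulin, ErbB, Akt and mTOR core none was called by any of the 3 tools, and their median was 0.00. Without both 4502 and 4503 DESeq2 called 1 of the 26 higher.

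Some neutrophil genes were higher, at a low level, and least so in 4504. Of 14 neutrophil markers 7 were tested, DESeq2 called *S100a8*, *S100a9*, *Lcn2* and *Mmp8* higher and *Mmp9* lower, and the summed level of the 7 ranged from 8.34 to 14.3 CPM in WT control and from 10.99 to 64.1 CPM in the libraries labelled *Mtmr2* KO. *Ly6g*, *Camp*, *Ltf*, *Ngp*, *Retnlg*, *Cxcr2* and *Elane*, which include the defining granule genes, were too low to be tested. *S100a9*, the partner of *S100a8* in calprotectin, was at 0.178, 0.144, 0.107 and 0.501 CPM in WT control and 7.24, 6.24, 1.96 and 0.144 CPM in the libraries labelled *Mtmr2* KO (DESeq2 adjusted *P* = 0.0124), and 4504 lay inside the WT control range, on 3 counts. *Lcn2*, an iron-binding protein of neutrophils that glucocorticoids and inflammation also induce, was at 2.09, 4.41, 2.85 and 6.11 CPM in WT control and 30.9, 43.9, 50.3 and 5.28 CPM in the libraries labelled *Mtmr2* KO (DESeq2 adjusted *P* = 0.00145). Without 4502 *S100a9* was not called (DESeq2 adjusted *P* = 0.0534), and neither was it without both 4502 and 4503 (DESeq2 adjusted *P* = 0.127), while *S100a8* was called each time. Of the 7 tested markers DESeq2 called 4 higher without 4503 and 2 without 4502.

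Other immune lists had few calls. The 16 macrophage markers had 0, with a median of 0.38 and their high value in 4502 (−0.24, 1.04, 0.21 and 0.14 per library). The 8 genes of MHC class II presentation had 0 calls and a median of −0.30, with −1.48 in 4503. Of 22 interferon-stimulated genes 1 was called higher, *Ifit1bl1*, and 5 of 22 had a higher mean. Of 14 complement genes 1 was called lower, *C7*, of the membrane attack complex, at 14.2, 6.24, 19.8 and 18.4 CPM in WT control and 4.97, 6.15, 4.43 and 8.25 CPM in the libraries labelled *Mtmr2* KO (log2 fold change −1.31, SE 0.34, DESeq2 adjusted *P* = 0.00842).

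Few myelin genes were called, and those were higher. Of 18 genes of compact and non-compact myelin, DESeq2 called 3 higher and 0 lower, the groups did not overlap for 5, all higher, with *Pmp22*, *Mbp*, *Ncmap* and *Drp2* among them, and the median log2 fold change was 0.13. *Ncmap*, a membrane protein of the Schwann cell's non-compact myelin, was at 1218, 1183, 1253 and 1224 CPM in WT control and 1747, 2734, 3029 and 1838 CPM in the libraries labelled *Mtmr2* KO (log2 fold change 0.94, SE 0.23, DESeq2 adjusted *P* = 0.00153). *Drp2*, which links the abaxonal membrane to periaxin and dystroglycan, was at 2507, 2750.3, 2552 and 2281 CPM in WT control and 3469, 5456, 8002 and 3549 CPM in the libraries labelled *Mtmr2* KO (log2 fold change 1.02, SE 0.32, DESeq2 adjusted *P* = 0.0136). WT control was tight for both, and 4501 and 4504 lay above it, with 4502 and 4503 highest. *Pmp22* was at 27292, 22536, 26672 and 26046 CPM in WT control and 29393, 34647, 30785 and 30075 CPM in the libraries labelled *Mtmr2* KO (log2 fold change 0.28, SE 0.47, DESeq2 adjusted *P* = 0.383). DESeq2's own log2 fold change for *Pmp22* was 0.25, with a smaller SE of 0.13.

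Of 15 Schwann cell transcription factor genes 1 was called, *Id4*, an inhibitor of helix-loop-helix factors that is high in immature Schwann cells, at 12.2, 11.7, 13.7 and 11.8 CPM in WT control and 8.39, 6.82, 3.79 and 8.40 CPM in the libraries labelled *Mtmr2* KO (log2 fold change −0.85, SE 0.24, DESeq2 adjusted *P* = 0.0346). The median of the 15 was 0.03, and it was −0.13 without 4503 and −0.08 without 4502. For 2 of the 15 the groups did not overlap on the lower side and for 1, *Id2*, on the higher side. *Id2* was not called (log2 fold change 0.33, SE 0.14, DESeq2 adjusted *P* = 0.343). The 16 tested genes of non-myelinating and repair Schwann cells had 0 calls and a median of 0.15. The 14 myotubularin phosphatases and partners, which include *Mtmr2* and the genes of its binding partners *Sbf1* and *Sbf2*, had a median of 0.10 and 0 DESeq2 calls, while limma-voom with sample quality weights called only *Mtmr2*. The 15 genes of phosphoinositide kinases and their partners had a median of 0.03 and 0 calls.

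Neuronal transcripts were higher, and 4502 held most of the difference. A sciatic nerve holds axons but not the sensory neuron bodies, and the 9 of 14 sensory neuron markers that were tested summed to values from 62.3 to 79.3 CPM in WT control and from 80.5 to 252 CPM in the libraries labelled *Mtmr2* KO. DESeq2 called 3 higher, *Nefm*, *Prph* and *Snap25*, for 4 the groups did not overlap, and the per-library medians were 0.21, 2.32, 0.27 and 0.80. *Prph*, the intermediate filament peripherin, was at 8.56, 11.7, 10.7 and 10.5 CPM in WT control and 13.7, 45.9, 14.8 and 18.3 CPM in the libraries labelled *Mtmr2* KO (log2 fold change 1.16, SE 0.36, DESeq2 adjusted *P* = 0.048), and *Snap25*, of the synaptic vesicle fusion machinery, at 3.37, 3.41, 3.21 and 3.84 CPM in WT control and 4.803, 17.6, 5.72 and 7.20 CPM in the libraries labelled *Mtmr2* KO (log2 fold change 1.34, SE 0.38, DESeq2 adjusted *P* = 0.0205). Without 4502 the log2 fold changes were 0.59 and 0.76, and DESeq2 called both (adjusted *P* = 0.0318 and 0.0152). *Nefm*, the medium neurofilament chain, was at 6.53, 9.72, 8.53 and 9.85 CPM in WT control and 11.03, 59.5, 12.9 and 14.97 CPM in the libraries labelled *Mtmr2* KO (log2 fold change 1.504, SE 0.50, DESeq2 adjusted *P* = 0.0454), and it was not called without 4502 (log2 fold change 0.58, DESeq2 adjusted *P* = 0.0777) or without 4503 (DESeq2 adjusted *P* = 0.129). The neurofilament gene *Nefh* was at 9.37, 11.8, 10.1 and 11.7 CPM in WT control and 10.6, 60.6, 10.6 and 17.5 CPM in the libraries labelled *Mtmr2* KO, and outside 4502 it was at the WT control level in all but 4504. *Kif5a*, an axonal kinesin, chosen after its values were seen, was at 65.3, 71.3, 60.0 and 59.2 CPM in WT control and 77.7, 284, 99.5 and 110.1 CPM in the libraries labelled *Mtmr2* KO (log2 fold change 1.16, SE 0.35, DESeq2 adjusted *P* = 0.0427), with every library labelled *Mtmr2* KO above WT control. The sodium channel genes *Scn10a* and *Scn11a* of pain-sensing neurons were among the markers too low to be tested.

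The same library carried the ribosome and mitochondria. The 80 cytosolic ribosomal protein genes had a median log2 fold change of 0.87, 78 of 80 had a higher mean and 0 were called, with per-library medians of −0.04, 1.86, 0.21 and 0.79. Without 4502 the median was 0.35. Leaving out the library labelled *Mtmr2* KO 4503 let DESeq2 call 16 of the 80 higher. *Rpl13a* was at 521, 538, 579.6 and 759 CPM in WT control and 566, 2251, 641 and 1128 CPM in the libraries labelled *Mtmr2* KO. The 13 mitochondrially encoded subunits had a median of 0.61 with 4502 and −0.07 without it, and 0 calls. The 73 nuclear subunits of oxidative phosphorylation had a median of 0.19 with 4502 and −0.08 without it, and 0 calls. For 4 of the 73 the groups did not overlap, all lower. The part of transcript length and RNA quality in the values of 4502 was not tested.

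The remaining lists held few changes. Skeletal muscle markers (15 tested) had 1 call higher, *Casq1*, at 21.9, 21.5, 21.8 and 22.4 CPM in WT control and 27.5, 59.1, 39.3 and 30.04 CPM in the libraries labelled *Mtmr2* KO, which was not called without 4503. Proliferation genes (24) had 1 call lower, *Ccnd2*, the cyclin of early cell cycle entry, at 115, 117, 120.1 and 118 CPM in WT control and 89.5, 72.5, 47.5 and 77.3 CPM in the libraries labelled *Mtmr2* KO (log2 fold change −0.71, SE 0.18, DESeq2 adjusted *P* = 0.0245). Circadian clock genes (18), immediate early genes (23), heat shock chaperones (13), genes of the integrated stress and unfolded protein response (17), lysosome genes (26), regulators of RhoA, actin and myosin (19) and red blood cell markers (6) had 0 calls each by DESeq2, with medians of 0.03, 0.24, 0.06, 0.00, −0.06, −0.02 and −0.26. In all, DESeq2 called at least 1 member in 21 of 40 lists.

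**Figure D4:**
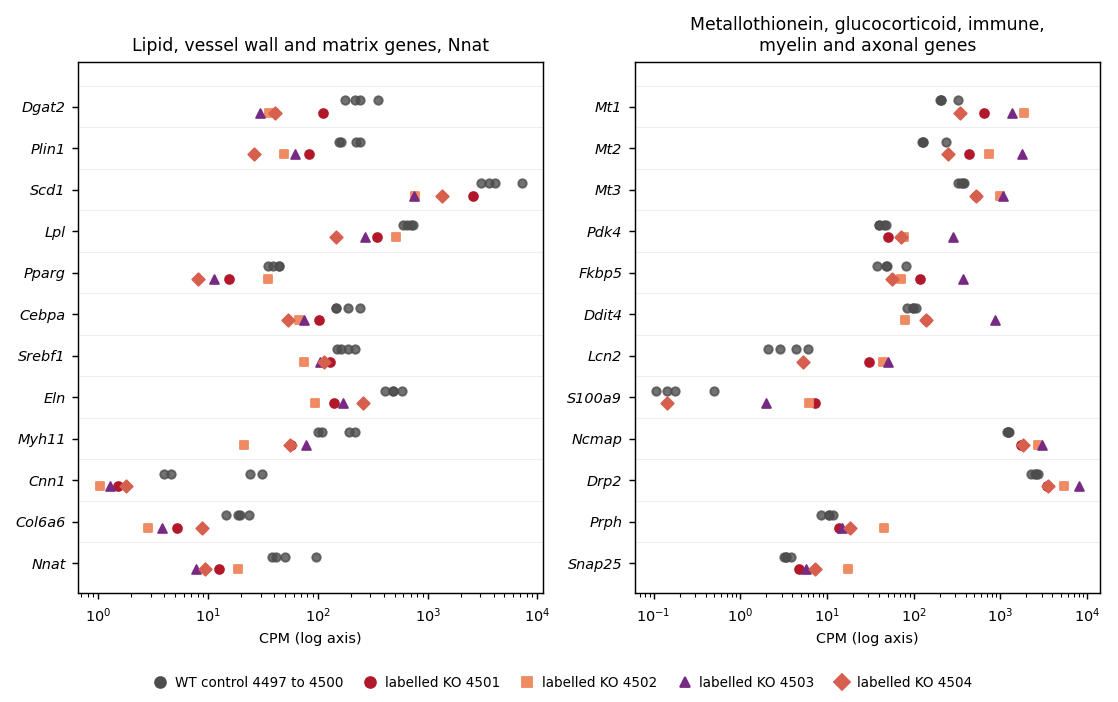
Level (CPM, log axis) of 24 genes named in the text, 1 point per library, with WT control in grey and the 4 libraries labelled *Mtmr2* KO in colour. Lipid, vessel wall and matrix genes and *Nnat* (left) lie lower in *Mtmr2* KO, with *Pparg* of 4502 back at WT control; metallothioneins, *Ncmap* and *Drp2* (right) lie higher in every library labelled *Mtmr2* KO, and *Pdk4*, *Fkbp5* and *Ddit4* stand out mainly in 4503.

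**Figure D5:**
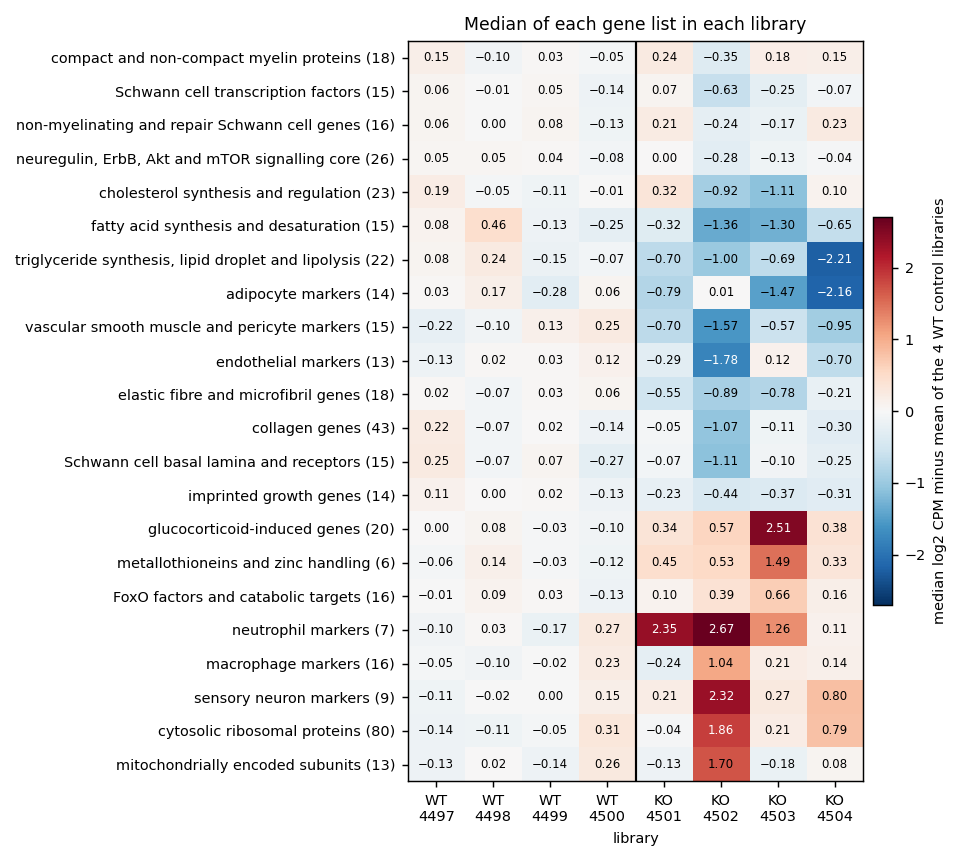
Each cell is the median, over the tested members of a gene list (their number in brackets), of the log2 CPM of 1 library minus the mean of the 4 WT control libraries; blue is lower and red is higher. The 4 WT control columns are pale. The fatty acid, triglyceride, adipocyte and smooth muscle rows are blue in most columns labelled KO, and the cholesterol row only in 4502 and 4503. The glucocorticoid row is darkest in 4503, and the neuron, ribosome and mitochondrial rows are red mainly in 4502.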

How the data were processed

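Poly(A) RNA of whole sciatic nerve was sequenced as paired reads of 150 bases on an Illumina HiSeq. Per the labels and the paper's methods, the authors made the base calls with CASAVA 1.9, mapped reads to GRCm38/mm10 with STAR and compared groups with DESeq2; for the counter, its strand setting and the annotation release nothing was found in those sources, so genes that overlap or share sequence are uncertain. The deposited table holds raw counts, whole reads per gene with no normalization by the authors. The authors' deposited DESeq2 comparison tables were used only for their gene symbols (42615 of 43432 genes; 22 tested genes have a symbol that a spreadsheet turned into a date and are not named); their fold changes and p-values were not used. The paper names TRIZOL for RNA extraction and the labels a kit.

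The 4 WT control and 4 libraries labelled *Mtmr2* KO were fitted with edgeR 4.0.16 in R 4.3.3 (filterByExpr, TMM, quasi-likelihood F test, two-sided, Benjamini-Hochberg adjustment, adjusted *P* under 0.05). CPM use the TMM library sizes, and log2 CPM a prior count of 2, which understates differences of low genes. Log2 fold changes come from the edgeR fit, with its default prior count. The standard errors (SE) beside them were back-calculated, as the absolute log2 fold change divided by the square root of the quasi-likelihood F statistic. DESeq2 1.42.0 and limma 3.58.1 (voom with sample quality weights) were alternatives, with scaling, filters, the fit over 12 libraries, *Xist* as a covariate and leaving out each library; leaving out 4502 and 4503 together, the libraries high in *Xist*, or each library under DESeq2 was chosen after seeing the data. Scripts were tested on simulated data. Genes named are *Mtmr2*, in each direction the 10 non-overlapping genes of smallest *P* with a mean of at least 1 CPM and a proper symbol, per list the 2 most abundant and 2 of smallest *P*, the 5 most variable among libraries labelled *Mtmr2* KO at a mean of at least 5 CPM, and the 9 genes *S100a9*, *Mt1*, *Nnat*, *Dgat2*, *P2rx1*, *Srebf1*, *Scd1*, *Lpl* and *Pparg* that the study names, which were picked on these libraries; others complete a count or are said to be chosen afterwards. The members and all 40 lists were chosen with earlier results of these data known, so no list is independent evidence of its direction. Lists are described by counts and medians, and no set test was run. Some results are not reported here. Gene positions are from GENCODE M21 (GRCm38) and promoters from RefSeq (GRCm38.p6).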

Additional observations from a re-analysis of the deposited data

Results flagged for a closer look

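Of 238 groups of 4 values examined (the 4 libraries of a group for a named gene or a list), 20 (8.4%) held 1 library so far from the other 3 that its gap, as a share of the group's whole range, was above the 95% critical value of Dixon's test, where chance flags about 1 in 20. In WT control the share was 0.963 for *Mt1* and 0.947 for *Mt2*, both high in 4498. It was 0.942 for *Saa3*, high in 4497, 0.851 for *Ccdc80*, high in 4500, and 0.846 for *Lox*, low in 4500. The 3 genes that follow sex were also flagged in WT control, with 0.957 for *Xist*, 0.938 for *Kdm5d* and 0.930 for *Ddx3y*, and so were the per-library medians of the neuregulin, ErbB, Akt and mTOR core (0.945) and of the myotubularin family (0.866).

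Among the libraries labelled *Mtmr2* KO, 4503 was far from the rest for *Ankrd37* (0.865), *Pth1r* (0.830) and the medians of the glucocorticoid-induced genes (0.891) and the brown fat markers (0.893). Library 4502 was far from the rest for the medians of the myelin genes (0.851), the basal lamina genes (0.834) and the mitochondrially encoded subunits (0.863), and as the female for *Xist* (0.872), *Kdm5d* (0.928) and *Ddx3y* (0.931).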

How the results depend on the processing

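edgeR's quasi-likelihood test made 0 calls in either direction with the older or robust dispersions, DESeq2 size factors, at least 10 counts in every library, or *Xist* as a covariate. It called 23 genes higher and 74 lower with no filter except 1 count, 20 and 63 over all 12 libraries, 6 and 28 without 4502 and 4503, and 0 and 2 without the libraries high in *Xist*. With each library left out in turn it called from 0 to 21 higher and from 0 to 29 lower, with 0 in both directions without 4503 or any WT control library. DESeq2 called 133 higher and 294 lower on the 8 libraries, 272 and 411 over all 12, 93 and 234 without the libraries high in *Xist*, 94 and 412 without 4502 and 4503, and, with each library left out, from 38 (without 4497) to 407 (without 4501) higher and from 116 (without 4499) to 536 (without 4501) lower. Limma-voom with sample quality weights called 9 and 101. Genes whose groups did not overlap numbered from 742 to 1457 higher and from 1088 to 1616 lower with each library left out. The cause of these shifts was not tested, beyond that fewer libraries overlap less often. The log2 fold change of *Mtmr2* was −0.83 in limma-voom, −0.98 in edgeR and DESeq2 without 4502 and 4503, and from −0.88 to −0.48 with each library left out. The log2 fold change of Tagln, not called at 0.46, was −0.18 in limma-voom, −0.14 and −0.11 in DESeq2 and edgeR without the libraries high in *Xist*, −0.46 and −0.47 without 4502 and 4503, and from −0.070 to 0.67 with each library left out. The log2 fold change of Smtn ran from −0.066 to 0.31 with each left out, and the log2 fold change of Lox was −0.017 in DESeq2 and −0.0145 in edgeR without 4502 and 4503. DESeq2 calls of *Cebpa* (adjusted *P* = 0.0536), *P2rx1* (0.0514), *Lcn2* (0.155) and *C7* (0.374) were also lost without both. No paired analysis was possible because the groups share no replicate numbers. Depth limits *S100a8*, *S100a9*, *Saa1*, *Saa3*, *Crp* and *Cd300lf*, which had at most 16 counts in each WT control library.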

Other observations

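The 4 genes that follow encode acute-phase proteins, which liver and other tissues release in systemic inflammation, and all but *Saa3* were chosen after their values were seen. They were highest in 4502 and 4503, and no list of such genes was counted or tested. *Saa3*, a serum amyloid A, was at 0.391, 0.144, 0.143 and 0.134 CPM in WT control and 1.25, 38.6, 11.6 and 0.048 CPM in the libraries labelled *Mtmr2* KO, on counts of 37, 866, 367 and 1 in the libraries labelled *Mtmr2* KO and from 4 to 11 in WT control. *Saa1*, another serum amyloid A that could share reads with its close paralogs, was at 0.568, 0.0359, 0.107 and 0.167 CPM in WT control and 0.846, 4.59, 3.64 and 0.576 CPM in the libraries labelled *Mtmr2* KO, and *Crp*, C-reactive protein, at 0.178, 0.179, 0.285 and 0.401 CPM in WT control and 1.45, 1.87, 3.92 and 0.432 CPM in the libraries labelled *Mtmr2* KO. *Serpina3n*, a protease inhibitor of the acute phase, was the most abundant of them, at 131, 172, 154 and 177 CPM in WT control and 279, 985, 661 and 204 CPM in the libraries labelled *Mtmr2* KO (log2 fold change 1.75, SE 0.43, DESeq2 adjusted *P* = 0.00184), and it was not called without the library labelled *Mtmr2* KO 4503 (DESeq2 adjusted *P* = 0.145). Library 4504 was lowest of the libraries labelled *Mtmr2* KO for all 4 genes, below WT control for *Saa3* and just above it for the other 3.

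A pair of mast cell granule genes, again chosen after their values were seen, had a lower mean. *Mcpt4*, a chymase of connective tissue mast cells, was at 16.6, 23.6, 12.5 and 27.5 CPM in WT control and 6.09, 5.66, 4.43 and 14.2 CPM in the libraries labelled *Mtmr2* KO (log2 fold change −1.41, SE 0.37, DESeq2 adjusted *P* = 0.00865), and *Tpsb2*, a tryptase, at 17.5, 20.8, 12.5 and 24.2 CPM in WT control and 7.48, 8.33, 6.58 and 13.7 CPM in the libraries labelled *Mtmr2* KO (log2 fold change −1.06, SE 0.27, DESeq2 adjusted *P* = 0.0112). For neither gene were the groups fully apart, and without both 4502 and 4503 DESeq2 called neither (adjusted *P* = 0.401 and 0.0528). *Sptbn4*, the spectrin of nodes of Ranvier and axon initial segments, was at 0.959, 1.00, 0.642 and 0.634 CPM in WT control and 1.22, 4.37, 1.58 and 1.97 CPM in the libraries labelled *Mtmr2* KO, with every library labelled *Mtmr2* KO above WT control and 4502 highest.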
